A study of Schmidtea mediterranea with 2 samples.

Results

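The 60 genes described here came from a planarian tissue section. Among abundant genes outside a marker list, their share of a bead's UMIs was nearest to uncorrelated with that on neighbouring beads. They are called evenly spread below as a name for this choice, which does not mean an even spread by every measure. A UMI (unique molecular identifier) marks 1 captured transcript, and a bead is a barcoded capture spot of known position on a Slide-seqV2 puck. Fragments of the planarian *Schmidtea mediterranea* were embedded in OCT, cut on a cryostat and placed on 1 puck. The resulting library of polyA RNA was sequenced in 2 runs, and the table used here combined both runs after Read 1 had been corrected with Syrah. The labels gave no genotype, treatment or age, and with 1 library there was no replicate and no contrast between conditions, so values carry counting intervals where these could be had and no test.

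The genes were selected on measured values. On the 8789 beads with at least 50 UMIs, 333 genes had at least 1000 UMIs, and 26 of these were left out because they stood among the 36 genes of the study's list of known intestine and stem cell markers. For each of the 307 remaining candidates, a score gave the Pearson correlation over beads between the gene's share of a bead's UMIs and its share of the pooled UMIs of the 10 nearest other beads. The 60 scores nearest 0 were taken, out of 22150 genes in the table. The last members inside had scores of 0.01282 and 0.01304, and the next candidates outside had scores of 0.01332 and 0.01334, so the edge of the set fell within a continuous range. Neither the scores nor the pairs of UMIs on neighbouring beads 1 to 10 are therefore findings about these genes.

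Planarians hold a large population of dividing stem cells, known as neoblasts, which express the Argonaute family gene piwi-1 and give rise to all other cell types. A branched intestine runs through most of the body, and mat2a served as its marker in the study. Transcripts restricted to such a tissue are found on neighbouring beads together, whereas transcripts that most cells hold in like amounts, as is usual for genes of translation or energy metabolism, are spread in proportion to the RNA captured. A Slide-seqV2 bead is about as wide as a cell and can take up RNA from several. The files did not pair the identifiers of the 60 genes with names or functions, so no role can be given for any of them. Identifiers are printed for the 2 members at each end of the range of pairs of UMIs on a bead, and the others are described by counts, ranges and rank.

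The beads together held 3166333 UMIs, with a median of 196 per bead and a range from 50 to 6388. The 60 genes accounted for 134171 of these UMIs, or 4.237% (exact binomial 95% interval 4.215 to 4.26, counting error only), and 97.86% of beads held at least 1 of them. The median distance from a bead to its 10th nearest bead was 51.74 coordinate units, and to its 50th and 200th it was 125.6 and 280.4 units. The table does not state the unit of its positions.

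The scores of the 60 genes ran from -0.01007 to 0.01304, and 26 were below 0. Among all 307 candidates, 33 scores were below 0, 7 lay below every member, 240 lay above every member, and the highest was 0.785. The set thus took nearly all of the lower end of the range rather than its middle.

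All 60 genes were abundant by the minimum of 1000 UMIs, but most lay close to it. Their UMIs on these beads ran from 1000 to 15974, with a median of 1514 against 2030 for the other candidates. The 3 members with the most UMIs had 15974, 14362 and 5719, and 21 members were among the 60 candidates with the fewest UMIs while 4 were among the 60 with the most. Members made up 30 of the 102 candidates with 1000 to under 1500 UMIs (29.41%), 9 of 57 with 1500 to under 2000 (15.79%), 15 of 68 with 2000 to under 3000 (22.06%) and 6 of 80 with at least 3000 (7.5%). A score near 0 was thus more frequent among genes with few UMIs. Over the 307 candidates, which share 1 library, the number of UMIs and the score had a Spearman rho of 0.398 across genes, which are not independent replicates. When every candidate was thinned to 1000 UMIs, 31 of the 60 stayed among the 60 scores nearest 0.

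**Figure D1:**
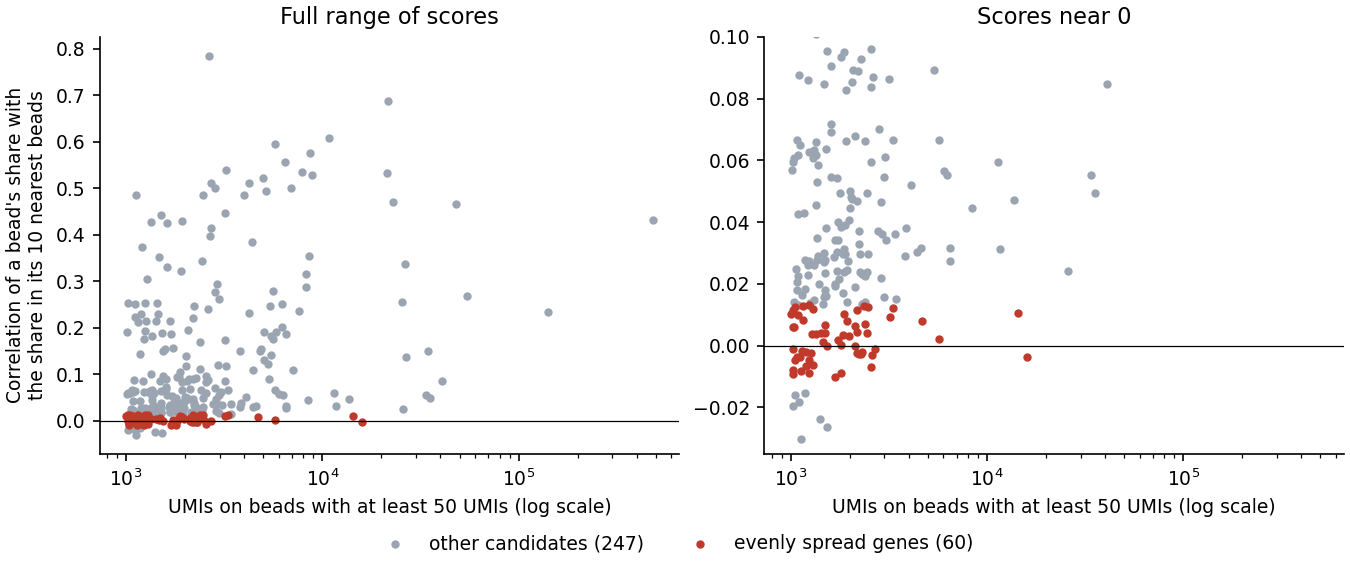
Score of each candidate gene (y axis, correlation over beads) against its UMIs on beads with at least 50 UMIs (x axis, log scale), over the full range on the left and near 0 on the right, where scores above the axis are not drawn. The 60 evenly spread genes lie between -0.01007 and 0.01304, most of them at the left end of the UMI range, and 7 other candidates lie below them.

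UMIs of most of the 60 genes shared a bead more often than their totals gave, as was the case for nearly all candidates. The same-bead pair ratio counts pairs of UMIs of a gene on 1 bead and divides them by the number given by its share of all UMIs and by the UMIs of each bead, so that 1 stands for an even spread. It ran from 0.97 to 1.913 over the 60 genes, with a median of 1.368 and 59 of 60 values above 1, as were 301 of the 307 candidates. The other candidates had a median of 1.613 and reached 141.8. A ratio of at least 1.3 was found for 36 of the 60 genes (60%), against 73.3% of all candidates. The score is divided by the spread of a gene's share over beads, to which pairs on a bead contribute, so this measure is not independent of the choice and is given as a description. In 59 of the 60 genes, and in 305 of the 307 candidates, fewer beads held a UMI than an even spread gave.

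Genes with more UMIs had ratios closer to 1. The Spearman rho between UMIs and same-bead pair ratio was -0.548 over the 60 genes and -0.277 over the 307 candidates, as a description across genes. Counted instead as surplus pairs per 100 UMIs of the gene, the 60 genes with 1000 to under 1500 UMIs had a median of 20.01 and those with at least 3000 had 17.46. The corresponding medians of the other candidates were 27.2 and 60.59, so the surplus stayed level with abundance among the members and was larger for abundant genes among the others.

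SMED30027407 had the highest same-bead pair ratio of the 60 and 1030 UMIs, or 3.253 per 10000. Its UMIs lay on 817 beads, where an even spread gave 900.1, and made 590 ordered pairs on a bead against 308.4, a ratio of 1.913. On neighbours 1 to 10 the gene had 1499 pairs against 1579 (ratio 0.949), which its choice by score had set near 1. On neighbours 11 to 50 and 51 to 200 its ratios were 0.983 and 0.976, so no surplus was measured at those distances. Over 16 regions of the puck with nearly equal numbers of UMIs, its share ran from 2.574 through a median of 3.344 to 3.69 per 10000.

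The marker mat2a gave a comparison at nearly the same depth. It had 1032 UMIs and a same-bead pair ratio of 1.88, close to that of SMED30027407, but made 2178 pairs with neighbours 1 to 10 against 1586 (ratio 1.374), and its score was 0.0533. The genes were alike on single beads, and their difference on neighbours 1 to 10 restates the choice of SMED30027407 for its score near 0. The stem cell marker piwi-1, with 1805 UMIs, had ratios of 3.029 on the same bead and 1.611 on neighbours 1 to 10.

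SMED30013177 had the second highest same-bead ratio and 1341 UMIs, or 4.235 per 10000. It made 986 pairs on a bead against 522.7 (ratio 1.886). Its ratio was 1.084 on neighbours 1 to 10, 1.179 on neighbours 11 to 50 and 1.125 on neighbours 51 to 200, and the last 2 were the highest among the 60 genes. By this measure its UMIs were thus spread less evenly than those of the other members at the wider distances. Its share was also higher on beads with more UMIs, as given below, and the part of depth was not tested. Over the 16 regions its share ran from 3.071 through a median of 4.389 to 5.285 per 10000.

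At the other end, SMED30011839 had the lowest same-bead ratio, 0.97, with 1158 UMIs and 378 pairs against 389.8. Its UMIs lay on 1001 beads where an even spread gave 996.9, and at most 4 fell on 1 bead. Over the 16 regions its share nonetheless varied 2.311-fold, from 2.271 through a median of 3.527 to 5.248 per 10000, which was 45 UMIs in the lowest region and 104 in the highest. It was thus even within beads and uneven over the puck.

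SMED30014601 had the next lowest ratio, 1.028, and was the second most abundant of the 60 genes with 14362 UMIs (45.36 per 10000). It was found on 5228 beads, or 59.48%, where an even spread gave 5308, and at most 27 of its UMIs fell on 1 bead. Between the lowest and highest region its share differed 1.216-fold, the least of the 60, from 40.87 to 49.7 per 10000 with a median of 45.53. Such a fold is smaller where counts are high. The gene's dispersion over the regions was 2.214, beside a median of 2.102 over the 60 genes. The member with the most UMIs had a same-bead ratio of 1.049 and ran from 45.67 through 51.23 to 55.58 per 10000 over the regions. On neighbours 11 to 50 and 51 to 200 the ratios were 0.979 and 0.985 for SMED30014601 and 1.017 and 1.002 for the member with the most UMIs, all close to an even spread.

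Farther from a bead, the ratios of the 60 genes stayed near 1. On neighbours 1 to 10, which the score had used, they ran from 0.92 to 1.156 with a median of 1.031, and 0 of 60 reached 1.3 against 30.6% of all candidates. On neighbours 11 to 50 they ran from 0.928 to 1.179 with a median of 1.018, against 1.107 for the other candidates. Of the 60, 0 reached 1.3 there, against 19.5% of all candidates. A bead ranked 11 to 50 from another can itself have that other among its 10 nearest, so some of these pairs entered the score. On neighbours 51 to 200 they ran from 0.948 to 1.125 with a median of 1.005, against 1.053, and 0 of 60 reached 1.3 against 14%. The values below 1 numbered 15, 17 and 23 at the 3 distances. The distances share genes and beads, and over the 60 genes the ratios at neighbours 1 to 10 and 51 to 200 had a Spearman rho of 0.646 (0.758 over all candidates). The wider distances are thus not independent of the choice and are given as a description.

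**Figure D2:**
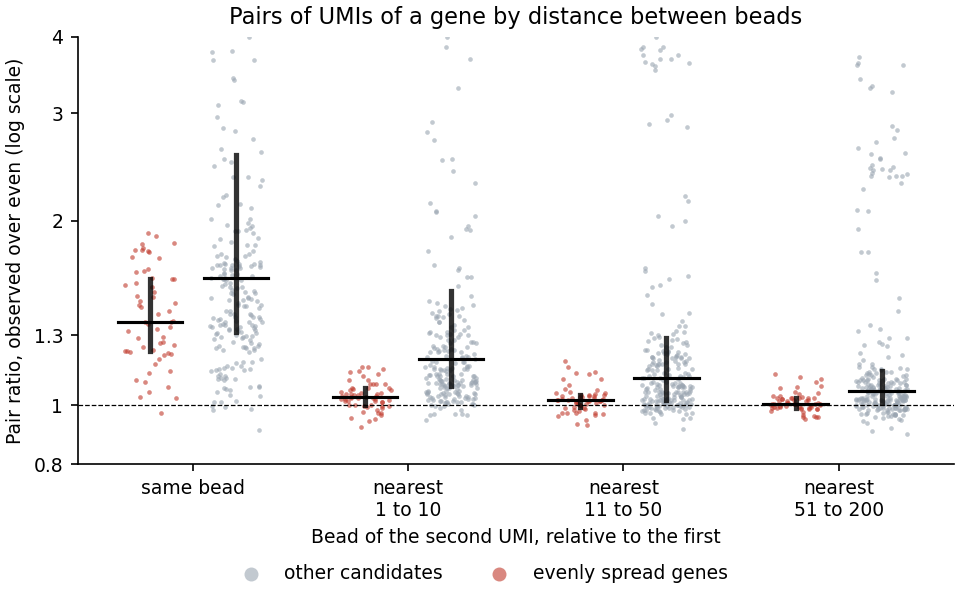
Pair ratio of each gene (y axis, log scale, 1 is even) for UMIs on the same bead and on the nearest beads 1 to 10, 11 to 50 and 51 to 200, with horizontal lines at the median, vertical bars over the interquartile range, and 102 values of other candidates above 4 not drawn. The medians of the 60 evenly spread genes are 1.368 on the same bead and 1.031, 1.018 and 1.005 at the 3 distances.

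Over the puck as a whole, the 60 genes ranged from about the variation of counting error to several times it, and most other candidates varied more. The beads were divided into 16 regions of 196156 to 199101 UMIs, and the dispersion of a gene was its chi-square statistic over the regions divided by 15, which averages 1 under counting error alone. It ran from 0.865 to 3.669 over the 60 genes, with a median of 2.102 against 6.569 for the other candidates, and was below 1 for 3 of the 60 and 4 of all 307, and below 2 for 28 of the 60 and 53 of all 307. The highest of the 60 was that of SMED30011839 and the second lowest, 0.949, that of SMED30027407, so the genes with the lowest and the highest same-bead pair ratio stood in the opposite order here. Clumping on single beads raises this measure as well. The regions hold the beads and neighbours that the score used, so this measure depends on the choice and is given as a description. For an uneven gene it also grows with the number of UMIs, and members had fewer. With 1000 to under 1500 UMIs the median dispersion was 1.917 for members and 3.582 for other candidates. With at least 3000 UMIs the medians were 2.226 and 18.94. From the lowest to the highest region, the share of a gene changed by 1.216-fold to 2.429-fold, with a median of 1.671 against 2.255 for the other candidates.

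The pooled share varied over the regions as well. Together the 60 genes took 3.783% of UMIs in the lowest region and 4.471% in the highest, with a median of 4.284% over the 16 regions. In the lowest region, centred at x 2746 and y 1714 on the puck, 53 of the 60 genes were below their share on all beads, beside 60.91% of the candidates. In the region with the highest pooled share 24 of the 60 were below it, beside 53.09%. Both regions were picked by the pooled share of the same 60 genes. The counts of members in them follow in part from that and are a description. The intestine list took 4.083% and the stem cell list 7.489% of UMIs in the lowest region, within their ranges over the 16 regions of 2.587 to 4.957% and 6.892 to 9.933%. In the highest region both lists were at the low end of those ranges, at 2.587% and 6.892%. What part the makeup of a region had in the pooled share was not tested.

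**Figure D3:**
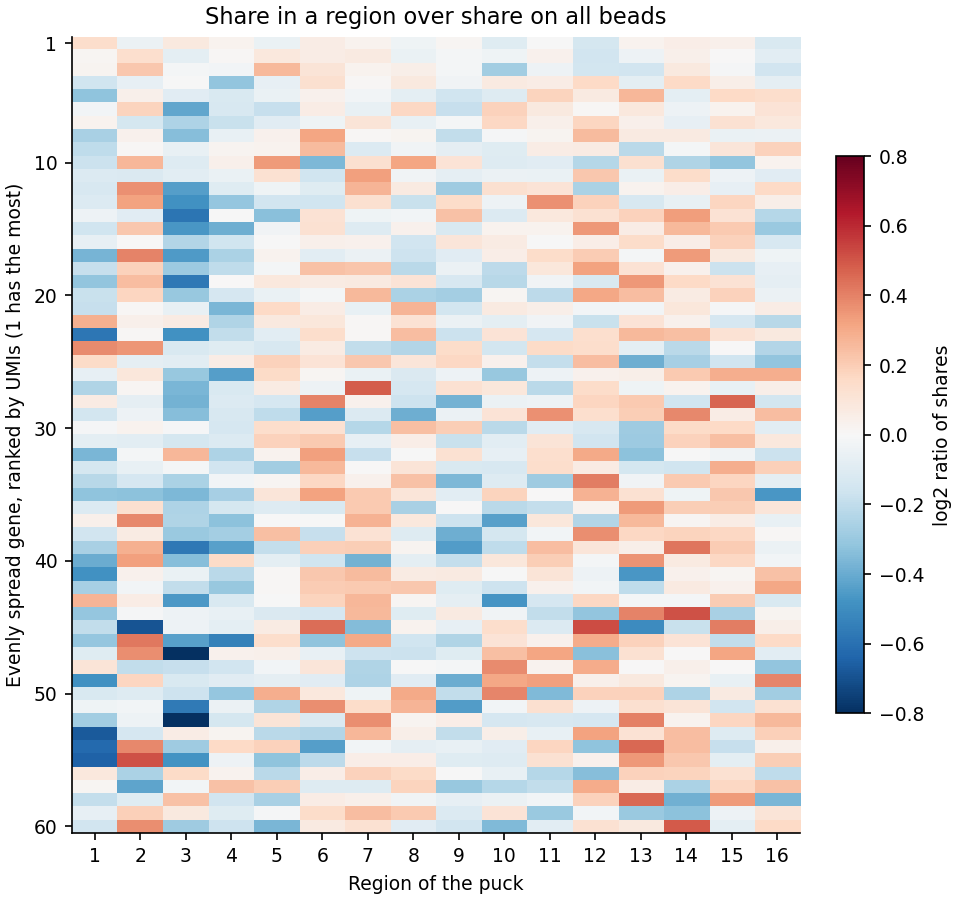
Share of each of the 60 genes in each of 16 regions of the puck over its share on all beads (colour, log2 ratio, limited to the range shown), with genes ranked from most to fewest UMIs down the y axis. Colours are paler in the upper rows, where counting error is smaller, and region 3 is blue for 53 of the 60 genes.

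The pooled share also showed a weak order between neighbouring beads. Its score over beads was 0.12, and 0.13 without the most abundant member, while single members were by their choice at most 0.01304. The pool held far more UMIs than a single member (median 1514), and over the candidates scores were higher in genes with more UMIs. What part this had in the pooled score was not tested. The pooled intestine list had a score of 0.515 and the pooled stem cell list 0.434. Taken over each bead with its 10 nearest, the share of the 60 genes ran from 3.317% at the 5th percentile to 5.036% at the 95th, a 1.518-fold span. The same span was 3.285-fold for the intestine list and 2.031-fold for the stem cell list. The pools differ in their number of UMIs (134171 for the 60 genes, 120600 and 265475 for the lists), on which these spans also depend.

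**Figure D4:**
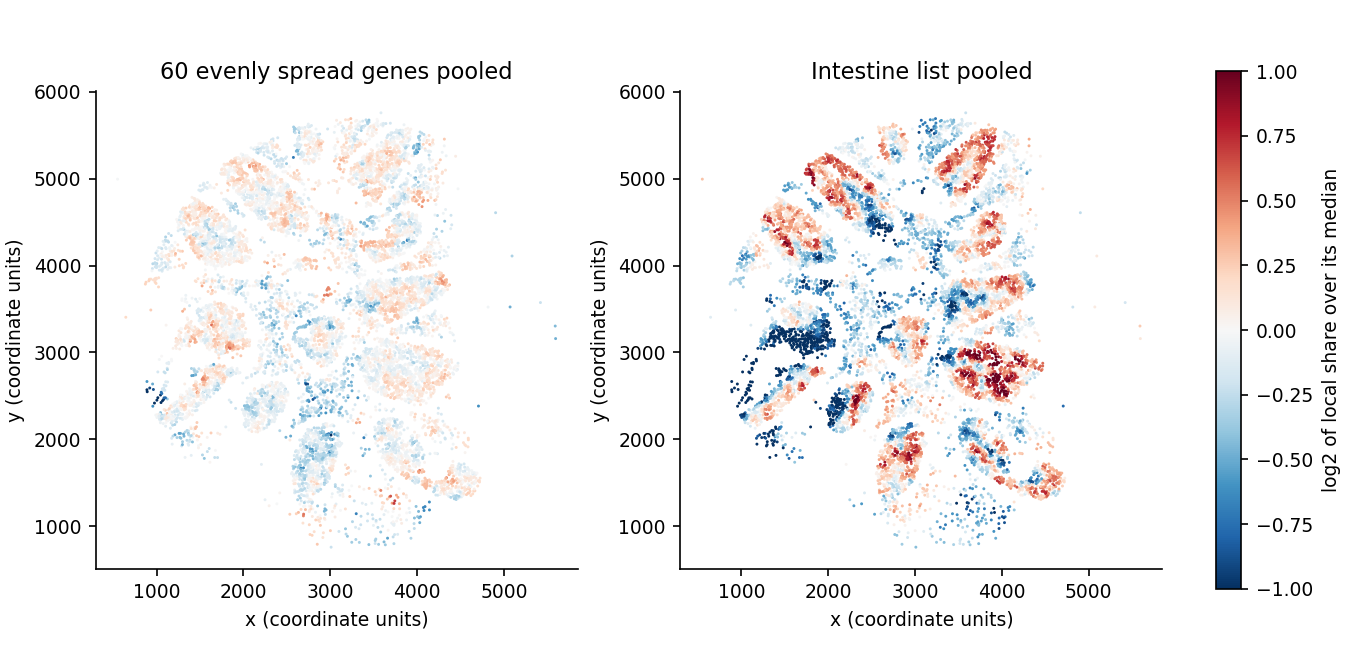
Position of the 8789 beads (x and y in coordinate units), coloured by the share of UMIs over each bead and its 10 nearest, as log2 of the ratio to the median of 4.21% for the 60 evenly spread genes (left) and 3.598% for the intestine list (right), on the same colour scale. The left map is pale over most beads, with a 1.518-fold span between the 5th and 95th percentiles and a few darker patches (lowest 1.504%, highest 6.901%), and the right map has blocks of high and low share, with a 3.285-fold span.

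The share of the 60 genes was slightly higher on beads with more UMIs. It was 4.027% (95% interval 3.934 to 4.122) on beads with 50 to under 100 UMIs, 4.104% (4.033 to 4.177) from 100 to under 200, 4.185% (4.141 to 4.23) from 200 to under 500, and 4.297% (4.268 to 4.326) from 500. The intervals of the lowest and highest classes did not overlap, and those of neighbouring classes did except at the top. Gene by gene, the ratio of the share on the 4345 beads with at least 200 UMIs to that on the 4444 with fewer ran from 0.812 to 1.498 with a median of 1.037, against 1.054 for the other candidates, and was above 1 for 43 of the 60 and 196 of the 307. The difference with depth was thus about the same in the candidates as a whole. A ratio of at least 1.3 was counted as higher and the inverse as lower. On the deeper beads 2 of the 60 were higher, against 13% of all candidates, and 0 were lower, against 6.84%.

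The larger of those 2 was SMED30013177, with 4.452 per 10000 on the deeper beads and 2.972 on the others (1.498-fold, 95% interval 1.255 to 1.8). For the second, 41st of the 60 by UMIs, the shares were 4.06 and 2.972 per 10000 (1.366-fold, 1.143 to 1.642). Both had under 1500 UMIs, and the 3 most abundant members had ratios of 1.08, 1.031 and 0.994.

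Most of the 60 genes had a slightly higher share on beads with a piwi-1 UMI, which the study took as positive for stem cells, than on the others. These 1137 beads had a median of 536 UMIs against 168 on beads without piwi-1, so depth moved with the marker. The ratios ran from 0.726 to 1.345 with a median of 1.077, and 42 of the 60 were above 1 beside 164 of the 307 candidates. Of the 60 genes 1 was higher, against 15.6% of all candidates, and 1 was lower, against 17.3%. The higher one was SMED30027407, with 3.988 per 10000 on piwi-1 beads and 2.965 on the others (1.345-fold, 95% interval 1.179 to 1.532). A second member lay at the limit itself, with 4.528 against 3.484 per 10000 (interval of the ratio 1.15 to 1.467), and fell just short of it. Within classes of bead UMIs 4 of the 60 were called in place of 2, and the share of all candidates was not taken there.

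Beads with a mat2a UMI, 801 in all, had a median of 626 UMIs against 174 on the others. The ratios of the 60 genes ran from 0.851 to 1.352 with a median of 1.004. Higher shares were found for 3 of the 60, against 13% of all candidates, and lower ones for 0, against 14.7%. The largest was that of the 32nd member by UMIs, with 5.941 per 10000 on mat2a beads and 4.392 on the others (1.352-fold, 95% interval 1.2 to 1.522). The same gene was the 1 with a lower share on piwi-1 beads, at 3.696 against 5.092 per 10000 (0.726, 0.64 to 0.821), and its ratio on neighbours 1 to 10, 1.153, was next to the highest of the 60. The other higher members, 15th and 31st by UMIs, had ratios of 1.331 and 1.33. A score near 0 thus did not keep every member from following a marker, and the marker genes of the study's list had been left out of the candidates beforehand.

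Beads with 10 to 49 UMIs had no part in the choice of the genes. There were 6274 of them, with 150028 UMIs and a median of 21. The 60 genes together took 3.867% of these UMIs (95% interval 3.77 to 3.965), below each of the deeper classes of beads. The ratio of a gene's share to that on beads with at least 50 UMIs ran from 0.551 to 1.287 with a median of 0.917, and 43 of the 60 were below 1, beside 215 of the 307 candidates. Higher shares were found for 0 of the 60, against 5.86% of all candidates, and lower ones for 11, which is 18.33% against 22.8%. The lower share on shallow beads was thus about as frequent among all candidates as among the 60. The beads with at least 50 UMIs, by whose share the ratio divides, did have a part in the choice. All candidates had to reach the minimum number of UMIs on them. Such a minimum can raise a gene's share there and lower its ratio, most of all for genes close to it. What part this had in the ratios below 1 was not tested.

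The lowest ratio on the shallow beads was that of SMED30013177, with 2.333 against 4.235 per 10000 (0.551, 95% interval 0.382 to 0.77), which rests on 35 UMIs. The gene was the same that had the largest share ratio on the deepest beads. Pairs on neighbouring shallow beads were few, with a median of 8 observed per gene, and the ratio of observed to even had a median of 0.998 with 30 of the 60 below 1. The candidates as a whole had a median of 1.116. The number of pairs set the precision, and the 2 most abundant members had 892 pairs against 895.9 and 659 against 617.8.

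**Figure D5:**
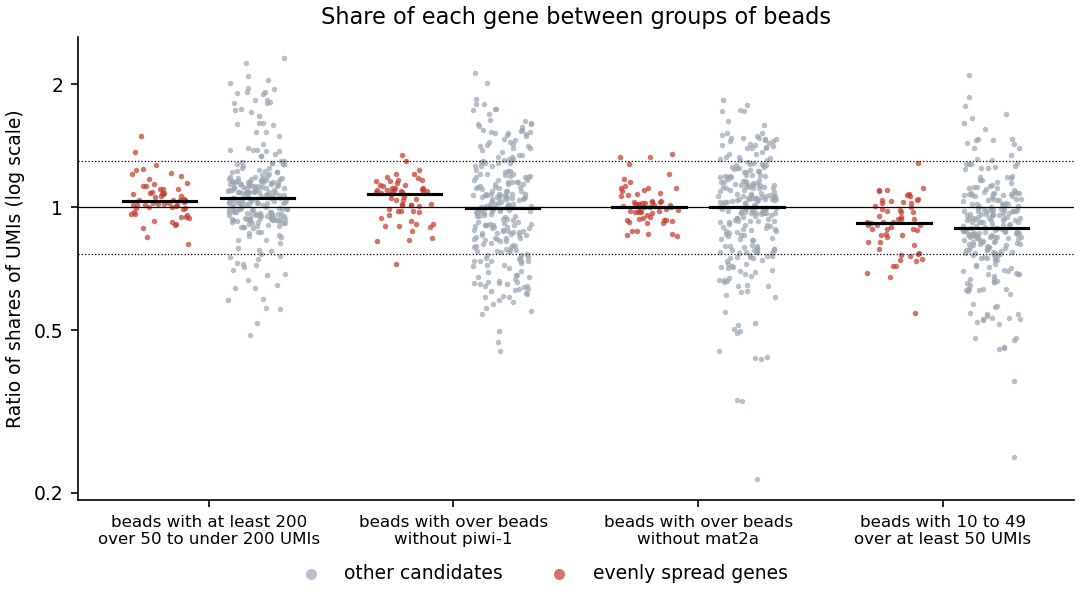
Ratio of the share of each gene between groups of beads (y axis, log scale) for deeper over shallower beads, beads with over without piwi-1, beads with over without mat2a, and beads with 10 to 49 over at least 50 UMIs, with horizontal lines at medians and dotted lines at the limits of a call. The 60 evenly spread genes lie between 0.551 and 1.498 in all 4 comparisons and the other candidates spread more widely on both sides.

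Different members were found on the same beads slightly more often than their shares gave. Over the 1770 pairs of members the ratio of observed to even joint UMIs ran from 0.747 to 1.375 with a median of 1.037, and 10 pairs (0.565%) were at 1.3 or above. Over the 46971 pairs of candidates the median was 0.997 and 11.38% reached 1.3. The joint occurrence of members thus stayed in a narrow range around an even spread. Paired with piwi-1, the 60 genes had a median of 1.174 and a range from 0.815 to 1.577, with 11 of 60 at 1.3 or above (18.33%) beside 25.08% of the candidates. Paired with mat2a they had a median of 0.954 and a range from 0.8 to 1.192, with 0 at 1.3 or above beside 4.235%.

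Syrah processing raised the UMIs of the 60 genes about as much as those of the rest. The ratio of Syrah-processed to standard UMIs of the doubly sequenced library ran from 1.186 to 1.297 with a median of 1.256, against 1.258 for the other candidates. All 60 genes were present in both versions, which share most of their reads. On the beads of the standard table with at least 50 UMIs, 37 of the 60 still had 1000 UMIs and 30 were among the 60 scores nearest 0.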

How the data were processed

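The authors used the Slide-seqV2 workflow of Broad WARP (v3.1.2) on reads with and without Syrah correction of Read 1, and deposited whole-number UMI counts per gene and bead barcode. The methods name alignment to schMedS3, while the deposited tables hold SMED30 identifiers. A further deposited table gives bead positions. The doubly sequenced Syrah-processed table (3364828 UMIs) was used, which contains the first run, with the other 3 tables as alternatives.

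Members, measures and lists were chosen with earlier results of these data known. Shares are fractions of pooled UMIs. Pair ratios divide observed pairs by the number that gene shares and bead totals give. Intervals of shares are exact binomial (Clopper-Pearson) and those of ratios exact conditional, at 95%, and cover counting error only. No p-value was computed from beads, since 1 library has no replicates. Calls used a limit of 1.3. The rule for named genes took, by identifier, the 2 highest and the 2 lowest members by same-bead pair ratio. The measures were tested on simulated data with known answers. Python 3.11.15, numpy 2.4.6, scipy 1.17.1, pandas 2.3.3 and matplotlib 3.10.9 were used.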

Additional observations from a re-analysis of the deposited data

How the results depend on the processing

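Membership depended on the settings of the score. Of the 60 genes, 41, 45 and 40 stayed among the 60 nearest 0 with 5, 20 and 50 nearest beads, and 43 on the singly sequenced Syrah table. Fewer stayed with at least 20 (30) or 100 UMIs per bead (37), with Spearman's correlation (39), with pair ratios nearest 1 (27), with each candidate thinned to 1000 UMIs (31), on the doubly sequenced standard table (30, or 33 with duplicated barcodes summed) and on the singly sequenced standard table (26). The standard tables had 242 and 229 candidates, among which 37 and 34 of the 60 genes remained.

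For the fixed 60 genes, the medians of the pair ratios moved by less than 1.3 times under every alternative run. The median region dispersion was 1.601 with 64 regions in place of 2.102, and the cause was not tested. At a limit of 1.5 the calls fell to 0 on deep beads, 0 on piwi-1 beads, 0 on mat2a beads and 1 on beads with 10 to 49 UMIs. The deep calls were 1 with at least 500 UMIs as the limit. The piwi-1 calls were 4 within classes of bead UMIs and 1 on the summed standard table, on which the calls on beads with 10 to 49 UMIs were 5, in place of 11. No share of all candidates was taken at these settings, so the counts describe the 60 genes only. In all, 40 of 57 alternatives over 11 results stayed within the limits of change. No paired analysis was possible because there is 1 library. Depth limited the pair ratios on beads with 10 to 49 UMIs, with a median of 8 observed pairs per gene.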

Other observations

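The second sequencing run added UMIs unequally to the 60 genes, a pattern looked at after its values were seen. Over all barcodes of the Syrah-processed tables, 53 of the 60 gained 3.154 to 9.635% (median 6.303%) and 7 gained 13.31 to 35.23% (median 21.65%). A gain of at least 10% was also found for 20 of the other 247 candidates. The 7 genes included the 3 members with the most UMIs and the 4 with the lowest same-bead pair ratio, SMED30011839 (21.65%) and SMED30014601 (21.2%) among them. Their same-bead pair ratios ran from 0.97 to 1.228 (median 1.049), beside 1.072 to 1.913 (median 1.446) for the 53. The other candidates were split in the same way, with a median ratio of 1.15 for the 20 and 1.629 for the rest. The number of UMIs moved with both values, and its part was not tested. Its median was 2567 against 1488 in the members and 5534 against 1963 in the other candidates.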
